A study of Homo sapiens with 12 samples.

Results

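The collagen genes, defined as every gene symbol made of COL, a number, the letter A and a second number, were followed across 4 human glioblastoma cell lines. This naming rule, which uses no measured value, found 44 of the 31654 genes in the expression table. Of these 44, 27 reached 1 FPKM (fragments per kilobase of transcript per 1e6 fragments, a level comparable between genes) in at least 3 of 12 libraries and were tested, and 17 did not. U87TR and U251TR are sublines resistant to temozolomide, the alkylating drug given for glioblastoma, and were raised in culture by stepwise rising doses from U87MG and U251MG, both long-established glioblastoma lines. Each of the 4 lines was grown in DMEM with fetal bovine serum and gave 3 libraries of total RNA. The labels name no further treatment and do not say whether the drug was present at harvest. With only 1 resistant subline a parent, resistance and any other change fixed during derivation cannot be told apart.

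Nothing in the labels says that the libraries of a line were separate cultures, and the p-values then measure only the spread between libraries, which may be technical. Across genes, U251MG replicate 2 had rank correlations of 0.977 and 0.978 with the other U251MG libraries, which reached 0.993 with each other. U87MG replicate 3 had 0.983 and 0.987 with the other U87MG libraries, which likewise reached 0.993. U87TR carries library codes of a separate number block, and this block and resistance cannot be told apart in U87. In bulk RNA, fewer cells that express a gene and less of its RNA per cell cannot be told apart either. Glial marker genes differed between the U251 and U87 lines, not all in one direction. Of 7 glial markers, 3 reached 1 FPKM in a library of U87TR, 4 in U87MG, 6 in U251TR and 6 in U251MG. AQP4, S100B and SOX2 were listed at 0 in every U87MG library, and AQP4 also in every U251MG library. Glial markers summed to 3846 to 4294 FPKM in U87TR and 4561 to 5384 in U87MG. In U251TR they summed to 1330 to 1399 FPKM and in U251MG to 1724 to 2989. Between the parents all 6 tested glial markers passed the test, 1 higher in U87MG and 5 lower, where 72.3% of all genes passed. The 1 higher was VIM, at 4917 ± 418 FPKM in U87MG and 1702 ± 669 FPKM in U251MG (SD, n = 3 each). Of 6 tested glial markers, 2 rose and 1 fell in U87TR, where 27.8% of all tested genes passed the test. In U251TR, 1 rose and 4 fell, where 53.2% of all tested genes passed. In U251TR, GFAP, the astrocyte filament gene, rose to 396 ± 17.4 FPKM, against 22.8 ± 6.19 FPKM in U251MG (SD, n = 3 each), a log2 fold change of 4.09 (adjusted p = 3.58e-08). NES fell there by 2.16, S100B by 1.92, VIM by 0.99 and SOX2 by 0.95. Fibroblast and pericyte markers summed to 42.0 to 47.5 FPKM in U87TR, 37.2 to 45.3 in U87MG, 263.9 to 301.6 in U251TR and 663 to 1123 in U251MG, and in both U251 lines most of this sum was THY1. Between the parents, THY1 was lower in U87MG and the other 5 of 6 tested fibroblast and pericyte markers were higher, where 72.3% of all genes passed. LUM and DCN were at or below 0.35 FPKM in every U251 library. LUM stood at 11.1 to 12.95 FPKM in U87TR and 4.52 to 5.91 FPKM in U87MG, and DCN at 0.09 to 0.42 FPKM in U87TR and 1.5 to 2.16 FPKM in U87MG. Of 6 tested fibroblast and pericyte markers, 2 rose and 3 fell in U87TR, beside the 27.8% of all genes. In U251TR, 2 rose, FAP and RGS5, and 1 fell, THY1, beside the 53.2% of all genes. DCN reached 1 FPKM only in U87MG and entered the test only through that line. Of the immune markers, CD68, a lysosomal gene of macrophages, averaged 332 ± 16.9 FPKM in U87TR and 196 ± 7.86 FPKM in U87MG, and 4.41 ± 1.51 FPKM in U251TR and 1.81 ± 0.44 FPKM in U251MG (SD, n = 3 each). It rose in both sublines, by 0.76 in U87TR (adjusted p = 0.00619) and 0.92 in U251TR (adjusted p = 0.00073), while PTPRC and CD3E were at or below 0.08 FPKM throughout. Endothelial markers summed to 0.58 to 0.59 FPKM in U87TR, 1.28 to 2.04 in U87MG, 17.8 to 18.6 in U251TR and 9.5 to 10.5 in U251MG. Epithelial markers summed to 2.14 to 2.54 FPKM in U87TR, 1.11 to 1.32 in U87MG, 36.9 to 39.75 in U251TR and 57.4 to 72.85 in U251MG. The part of other cell types in the results was not tested.

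Collagens are secreted or membrane-bound proteins whose chains wind into triple helices, and a helix forms only from certain sets of chains. Types I and V build fibrils, type IV chains form the network of basement membranes, and type VI chains form beaded microfilaments that anchor cells to the matrix. FACIT collagens coat fibrils, and transmembrane collagens and multiplexins sit at the cell surface or in basement membranes. Healthy brain tissue holds little fibrillar collagen outside vessels and meninges, and glioblastoma is known to lay down more collagen around its vessels.

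Type IV chain genes lie in head-to-head pairs that share a start region. In U251TR both partners of each pair passed the test in the same direction. Of all tested genes, 53.2% passed in U251TR, 33.6% higher and 19.6% lower, and 27.8% passed in U87TR. COL4A3 and COL4A4 reached 1 FPKM only in U251TR libraries, so this pair entered the test only through the line where it was high. The calls of COL4A1, COL4A2 and COL4A6 in U251TR were lost in some other settings. The part of the shared start regions was not tested. In U87TR, COL4A3 and COL4A4 both passed, COL4A5 passed without COL4A6, and neither COL4A1 nor COL4A2 passed. In U87 libraries COL4A2 stood at 2.01 to 5.70 FPKM, while COL4A1 did not exceed 0.12 FPKM. In RefSeq (GRCh38.p14), 126 bases separate the start sites of COL4A1 and COL4A2, and 418 bases those of COL4A3 and COL4A4. Shown are all 126 bases of the first pair (chr13:110307158-110307283, plus strand) and the 250 bases nearest COL4A3 of the second (chr2:227164374-227164623, plus strand). The 250 bases upstream of COL6A3 (chr2:237414165-237414414, minus strand) are shown for the collagen gene with the largest difference between the parental lines. Capitals mark CCAAT and GGGCGG or their reverse complements ATTGG and CCGCCC.
COL4A1 and COL4A2: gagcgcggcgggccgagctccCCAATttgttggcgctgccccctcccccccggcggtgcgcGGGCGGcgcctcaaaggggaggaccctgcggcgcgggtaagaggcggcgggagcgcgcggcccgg
COL4A3 and COL4A4: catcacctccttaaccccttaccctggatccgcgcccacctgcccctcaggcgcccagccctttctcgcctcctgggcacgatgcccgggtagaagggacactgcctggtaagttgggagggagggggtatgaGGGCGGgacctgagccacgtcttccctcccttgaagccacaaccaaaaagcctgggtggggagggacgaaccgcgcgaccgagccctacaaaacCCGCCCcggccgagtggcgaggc
COL6A3: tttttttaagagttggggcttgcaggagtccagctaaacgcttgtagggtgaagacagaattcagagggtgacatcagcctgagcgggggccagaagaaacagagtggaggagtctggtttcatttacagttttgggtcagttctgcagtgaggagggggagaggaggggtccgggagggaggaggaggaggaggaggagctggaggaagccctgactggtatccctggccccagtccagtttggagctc
The COL4A1 and COL4A2 stretch held 1 CCAAT at base 22 and 1 GGGCGG at base 62, with 20 CpG in its 126 bases. The COL4A3 and COL4A4 stretch, only the part nearest COL4A3, held no CCAAT and had 17 CpG. Its GGGCGG lay at bases 134 and 228, the second on the minus strand. The COL6A3 stretch held neither motif and 3 CpG. Among 35116 RefSeq promoters, 32.01% held CCAAT and 42.64% held GGGCGG in the 250 bases upstream of the start, and the median CpG count was 11. Over 250 bases upstream, COL4A1 had 38 CpG, 1 CCAAT and 2 GGGCGG, and COL4A2 had 40 CpG, 1 CCAAT and 1 GGGCGG. COL4A4 had 20 CpG and neither motif over its own 250 bases. No motif match here shows binding.

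More collagens passed between the parental lines than in either subline, and all tested genes ranked the comparisons in the same order, so the counts are not particular to collagens. In U87MG against U251MG, 21 of 27 tested collagens passed the test, 11 higher and 10 lower, where 72.3% of all 15449 tested genes passed, 32.2% higher and 40.1% lower. Here a gene passes at an adjusted p (limma, Benjamini-Hochberg over all tested genes) under 0.05. In U251TR against U251MG, 17 passed, 11 higher and 6 lower, where 53.2% of all genes passed, 33.6% higher and 19.6% lower. Of those higher, COL4A3, COL4A4 and COL22A1 reached 1 FPKM only in U251TR libraries and entered the test only through that line. The filter thus favoured a higher call for them there. In U87TR against U87MG, 10 passed, 6 higher and 4 lower, where 27.8% of all genes passed, 10.6% higher and 17.2% lower. The median log2 fold change of the tested collagens was 0.26 in U251TR, where the median of all genes was 0.10. In U87TR these medians were -0.004 and -0.05, and between the parents they were -0.06 and -0.09. Other ways of scaling the libraries put the median of all genes in U251TR between -0.01 and 0.20 and the share of higher genes among those that passed between 49.3% and 72.1%, against 63.2% as given. In U87TR this share was 38.1% as given and up to 48.8%. Of 66 collagen values followed under these scalings, none changed direction. The call was lost for 3 of them with median-of-ratios factors, for 2 with quantile normalization and for 1 when rescaled to TPM.

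**Figure D1:**
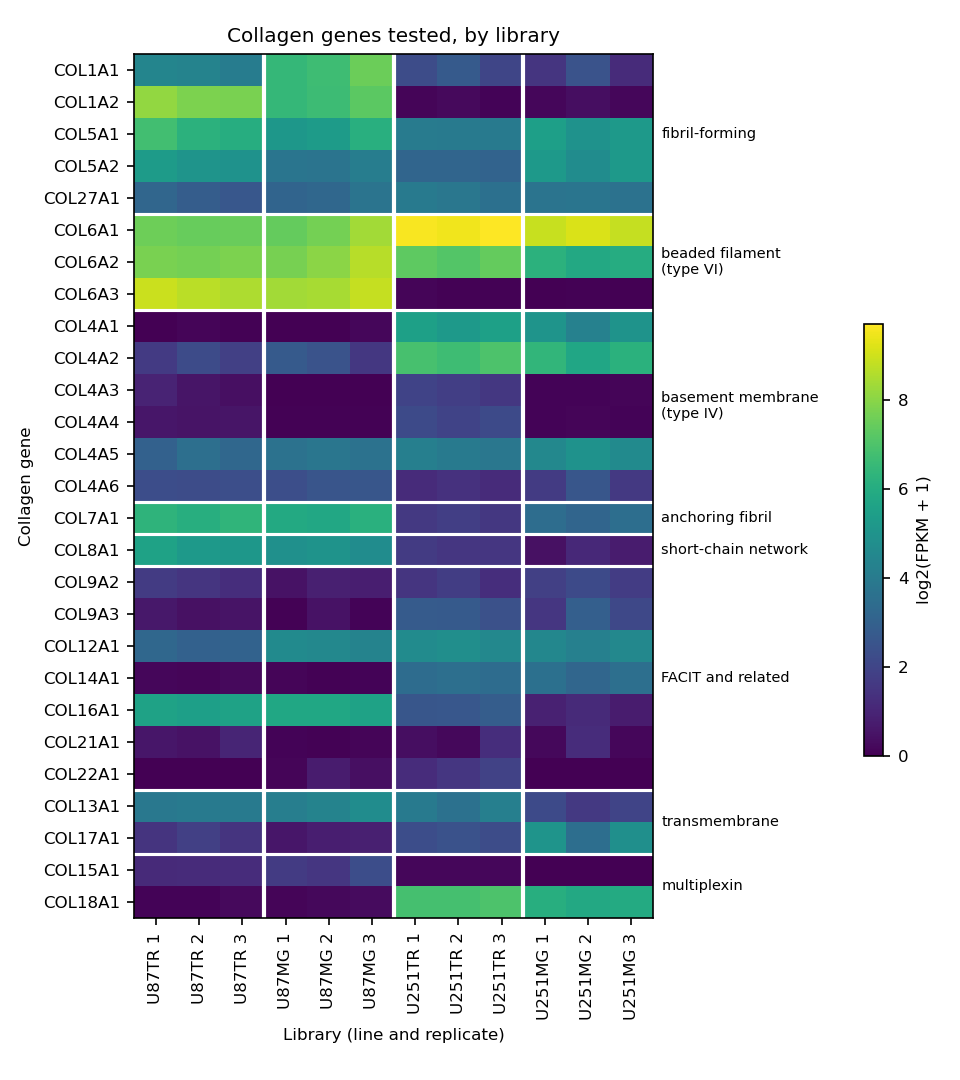
Levels of the 27 tested collagen genes, as log2(FPKM + 1) by colour, in each of 12 libraries (columns, 3 a line) and by structural class (rows). COL6A3 and COL1A2 are bright only in the 6 U87 libraries and COL18A1 and COL4A1 only in the 6 U251 libraries.

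Comparing the sublines with their parents asked which collagens moved with acquired resistance. COL4A3 and COL4A4 rose and COL4A5 fell in both, while COL5A1 and COL5A2 fell in U251TR and rose in U87TR. COL4A3 and COL4A4 entered the test only through U251TR, as no library of another line reached 1 FPKM. Another 9 collagens rose and 3 fell in U251TR without passing in U87TR, 2 rose and 3 fell in U87TR without passing in U251TR, and 5 passed in neither. Of all tested genes, 8.65% passed in both sublines in the same direction, 6.95% in both in opposite directions, 49.8% in 1 subline and 34.6% in neither. Whether the change itself differed between the sublines was tested for each gene, and 19 of 27 passed, 6 with a higher change in U87TR and 13 with a lower one. Of all genes, 47.6% passed this test, 15.4% higher and 32.1% lower. Among all genes that passed, the share of higher ones was 32.4% as given and 27.9% to 48.6% under other scalings.

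**Figure D2:**
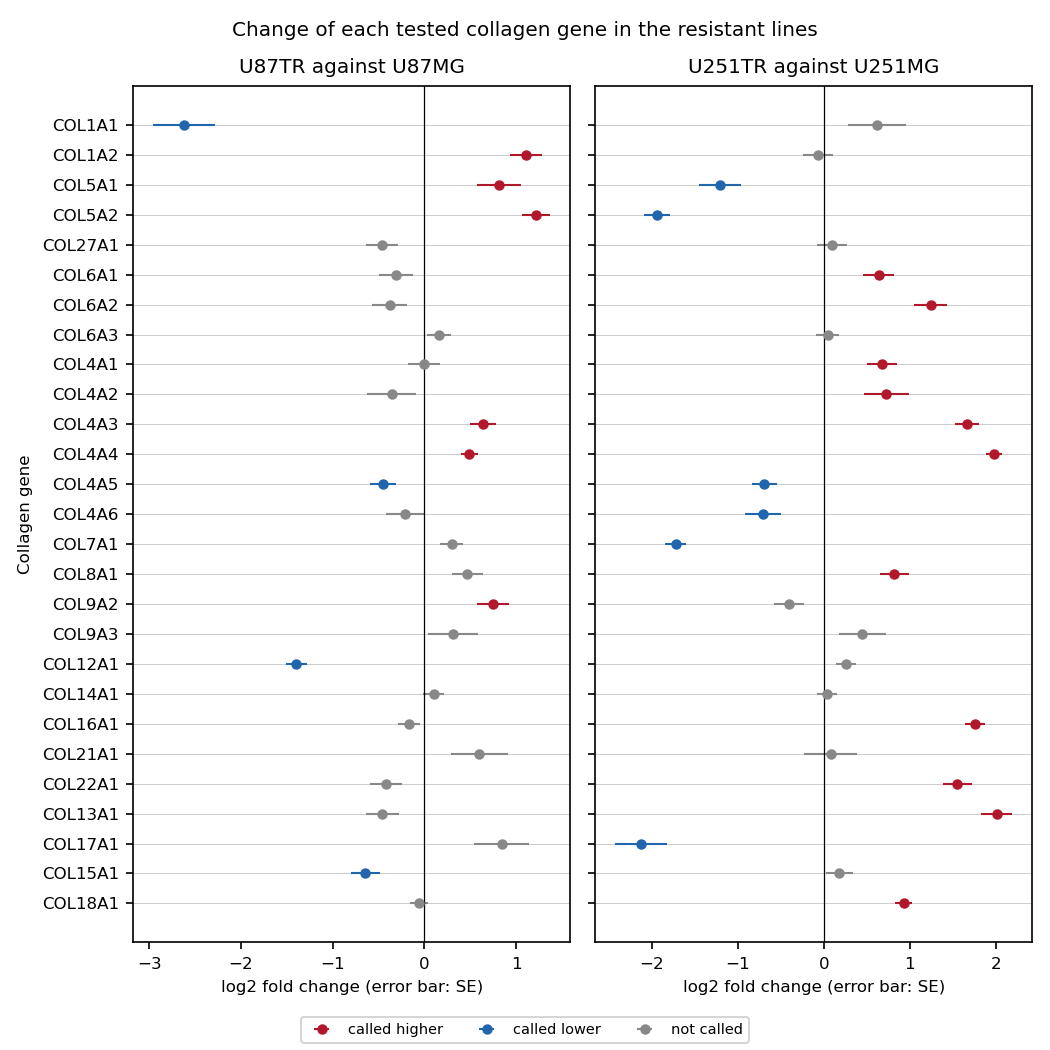
Log2 fold change of each of 27 tested collagens in U87TR against U87MG (left) and U251TR against U251MG (right), with bars of 1 standard error; colours mark genes that passed the test. COL1A1 lies furthest left in U87TR at -2.62, and COL5A1 and COL5A2 lie right of 0 in U87TR and left of 0 in U251TR.

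Of 5 tested fibril-forming genes, 3 rose and 1 fell in U87TR, and 2 fell in U251TR. Of all genes, 27.8% passed in U87TR and 53.2% in U251TR. The genes of type I collagen, the main fibrillar collagen of connective tissue, were high in the U87 lines and moved in opposite directions in U87TR. COL1A1, which codes for the chain present as a pair in each type I helix, stood at 20.4, 19.1 and 15.6 FPKM in U87TR and 87.5, 102 and 182 FPKM in U87MG. Every U87TR library lay below every U87MG library, and U87MG replicate 3 was the highest. COL1A1 fell by 2.62 on a log2 scale in U87TR (standard error, SE, 0.34, adjusted p = 0.000143). COL1A2, the single partner chain of that helix, stood at 280.1, 217 and 214 FPKM in U87TR and 86.4, 98.8 and 151 FPKM in U87MG. The U87TR libraries were all higher, and the log2 fold change was 1.11 (adjusted p = 0.000653, SE 0.18). In U251 lines COL1A2 did not exceed 0.27 FPKM in any library, while COL1A1 had 3.83, 5.71 and 3.05 FPKM in U251TR and 1.82, 4.65 and 1.27 FPKM in U251MG, which overlapped (adjusted p = 0.144). Between the parents, U87MG was higher in COL1A2 by 6.54 on a log2 scale (adjusted p = 1.12e-11, SE 0.18) and in COL1A1 by 5.16 (adjusted p = 4.84e-08, SE 0.34). COL3A1, which codes for the other abundant fibrillar collagen of soft tissue, averaged at most 0.10 FPKM in any line and was not tested.

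Type V collagen, which starts and thins type I fibrils, moved in opposite directions in the sublines. COL5A2 stood at 39.3, 31.6 and 29.8 FPKM in U87TR and 12.8, 12.4 and 16.5 FPKM in U87MG. In the other pair it stood at 7.85, 7.91 and 7.51 FPKM in U251TR and 37.3, 25.7 and 36.1 FPKM in U251MG. Neither pair overlapped, and the subline was higher in U87 and lower in U251. The log2 fold change was 1.22 in U87TR (adjusted p = 0.000103, SE 0.15) and -1.94 in U251TR (adjusted p = 7.63e-07, SE 0.15). These changes differed by 3.159 (adjusted p = 4.11e-07, SE 0.22), the widest positive gap among the collagens. COL5A1, its partner chain, stood at 108, 74.1 and 64.6 FPKM in U87TR and 34.0, 39.5 and 68.9 FPKM in U87MG, where U87MG replicate 3 reached into the U87TR range. In U251 it stood at 15.4, 14.8 and 15.1 FPKM in U251TR and 43.0, 29.6 and 37.2 FPKM in U251MG, with no overlap. COL5A1 fell by 1.21 in U251TR (adjusted p = 0.00123, SE 0.24). Its rise in U87TR was 0.81 (adjusted p = 0.0268, SE 0.24), and 1.11 without U87MG replicate 3. The call was lost without U87TR replicate 1 or U87MG replicate 1 (adjusted p = 0.11 each), U87TR replicate 2 (0.0509) or U87MG replicate 2 (0.0983). It was also lost with no filter (adjusted p = 0.0672) and in a fit on 6 libraries alone (adjusted p = 0.0733). The third type V gene, COL5A3, was under the filter, with 0.01, 0.03 and 0.01 FPKM in U251TR and 1.40, 0.54 and 1.46 FPKM in U251MG. COL27A1, a minor fibrillar collagen of cartilage, had 8.18, 6.26 and 5.21 FPKM in U87TR, 7.72, 8.41 and 12.2 in U87MG, 15.04, 13.5 and 11.1 in U251TR and 12.3, 12.7 and 11.7 in U251MG, and passed in none of the comparisons.

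**Figure D3:**
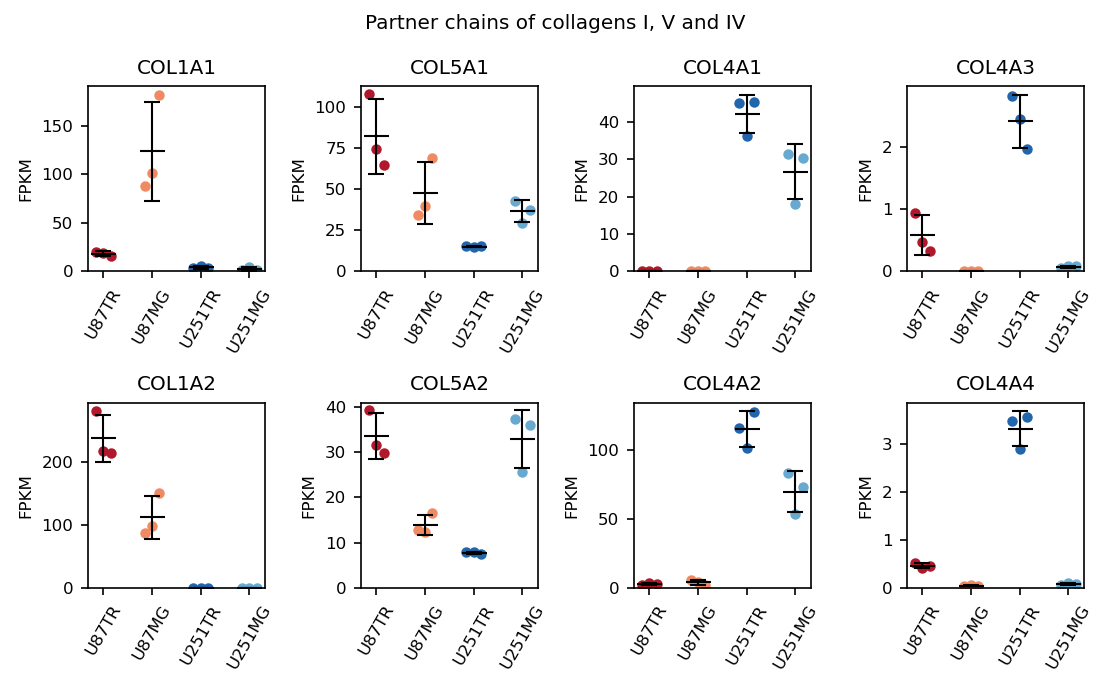
FPKM of 8 collagen chain genes in each library (points) with the mean and SD of each line (dash and bars, n = 3), partner chains one above the other. COL1A1 is lower and COL1A2 higher in U87TR than in U87MG, while COL4A3 and COL4A4 are higher in both sublines than in their parents.

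Type VI collagen held the largest share of collagen signal in every line, but with different chains. COL6A3, the long chain without which the classical helix of COL6A1, COL6A2 and COL6A3 products does not form, stood at 487, 414 and 359 FPKM in U87TR and 326, 347 and 459.9 FPKM in U87MG, which overlapped. No U251 library exceeded 0.10 FPKM. U87MG was higher than U251MG by 8.52 on a log2 scale (adjusted p = 1.29e-13, SE 0.13), the largest parental difference among the collagens. COL6A5 and COL6A6, whose chains can take the place of the COL6A3 product, did not average above 0.03 FPKM in any line. COL6A1 stood at 787, 714 and 831 FPKM in U251TR and 475, 569 and 457 FPKM in U251MG. COL6A2 stood at 156, 137 and 168 FPKM in U251TR and 73.5, 56.4 and 63.3 FPKM in U251MG. Both were higher in every U251TR library. The log2 fold change was 0.64 for COL6A1 (adjusted p = 0.0109, SE 0.18) and 1.24 for COL6A2 (adjusted p = 0.000188, SE 0.19). In U87TR none of these 3 genes passed in limma, and none had an unadjusted p under 0.05. COL6A1 stood there at 189, 175 and 177 FPKM, against 169.8, 204 and 323 FPKM in U87MG, and COL6A2 at 217, 206 and 218 FPKM, against 207, 255 and 406 FPKM in U87MG. For both genes the libraries of the pair overlapped, and U87MG replicate 3 was the highest. The changes of COL6A1 and COL6A2 differed between the sublines by -0.95 (adjusted p = 0.00987, SE 0.26) and -1.62 (adjusted p = 0.000474, SE 0.27).

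Of the 6 type IV genes of basement membranes, 4 rose and 2 fell in U251TR, and 2 rose and 1 fell in U87TR. The shares of all genes that passed were 53.2% in U251TR and 27.8% in U87TR. COL4A3 and COL4A4, whose chains form a helix with that of COL4A5 in kidney, lung and inner ear, rose in both sublines. Both reached 1 FPKM only in U251TR libraries and so entered the test only through the line where they were highest. COL4A3 stood at 0.95, 0.47 and 0.33 FPKM in U87TR and 0, 0.01 and 0 FPKM in U87MG, and at 2.83, 2.46 and 1.98 FPKM in U251TR and 0.06, 0.08 and 0.09 FPKM in U251MG. COL4A4 stood at 0.51, 0.41 and 0.46 FPKM in U87TR and 0.04, 0.05 and 0.03 FPKM in U87MG, and at 3.48, 2.89 and 3.56 FPKM in U251TR and 0.07, 0.11 and 0.08 FPKM in U251MG. All libraries of both parents were at or below 0.11 FPKM, and the sublines lay above them without overlap. On the log2(FPKM + 1) scale, which understates changes of such low genes, COL4A4 was higher by 1.98 in U251TR (adjusted p = 8.05e-09, SE 0.09) and 0.49 in U87TR (adjusted p = 0.002, SE 0.09). COL4A3 was higher by 1.66 in U251TR (adjusted p = 1.21e-06, SE 0.14) and 0.64 in U87TR (adjusted p = 0.00498, SE 0.14). The rise was larger in U251TR for both, by the test of the difference (adjusted p = 0.00116 for COL4A3 and 2.93e-06 for COL4A4).

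COL4A5, the third chain of that helix, moved the other way. It stood at 17.1, 14.6 and 13.6 FPKM in U251TR and 21.9, 29.5 and 23.8 FPKM in U251MG, without overlap, and fell by 0.69 on a log2 scale (adjusted p = 0.00178, SE 0.15). In U87TR it stood at 7.04, 10.6 and 8.36 FPKM, against 11.5, 13.2 and 11.6 FPKM in U87MG, again without overlap, and fell by 0.45 (adjusted p = 0.0388, SE 0.15). This last call was lost in 10 other settings, with adjusted p from 0.0518 to 0.152, among them without U87TR replicate 1 or 3 and without any 1 of the U87MG replicates. COL4A6, its head-to-head neighbour, stood at 1.26, 1.62 and 1.31 FPKM in U251TR and 2.22, 5.01 and 2.05 FPKM in U251MG. The U251MG level was highest in replicate 2. COL4A6 fell by 0.70 in U251TR (adjusted p = 0.0135, SE 0.21), and by 0.39 without U251MG replicate 2. In U87TR it stood at 3.87, 3.74 and 4.02 FPKM, against 4.07, 4.89 and 5.02 FPKM in U87MG (adjusted p = 0.502), and every U87TR library was the lower.

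COL4A1 and COL4A2, the chains of nearly all basement membranes including those of brain vessels, were genes of the U251 lines. COL4A1 stood at 44.9, 36.3 and 45.2 FPKM in U251TR and 31.4, 18.1 and 30.4 FPKM in U251MG, and did not exceed 0.12 FPKM in any U87 library. COL4A2 stood at 116, 101 and 127 FPKM in U251TR and 82.7, 53.1 and 73.2 FPKM in U251MG, and at 2.16, 3.71 and 2.58 FPKM in U87TR and 5.70, 4.53 and 2.01 FPKM in U87MG. U251MG replicate 2 was the lowest U251 library for both genes, and every U251TR library was higher than every U251MG library. U87MG against U251MG had a log2 difference of -4.68 for COL4A1 (adjusted p = 2.26e-10, SE 0.18) and -3.85 for COL4A2 (adjusted p = 6.3e-08, SE 0.26). In U251TR, COL4A1 rose by 0.68 (adjusted p = 0.00646, SE 0.18), and by 0.43 without U251MG replicate 2, a call lost at a pseudocount of 0.1 (adjusted p = 0.0705). COL4A2 had a log2 fold change of 0.73 in U251TR (adjusted p = 0.0354, SE 0.26), a call that was lost in 7 settings, among them without U251MG replicate 2 (0.55, adjusted p = 0.128), U251MG replicate 3 (adjusted p = 0.0601), U251TR replicate 1 (0.0797) or U251TR replicate 3 (0.105). Neither gene passed in U87TR. Both tested endothelial markers also rose in U251TR, where 33.6% of all genes rose. CDH5, a cadherin of endothelial junctions, averaged 11.2 ± 0.62 FPKM in U251TR and 6.69 ± 1.35 FPKM in U251MG, and KDR, a VEGF receptor, 6.85 ± 0.41 FPKM in U251TR and 2.93 ± 0.98 FPKM in U251MG (SD, n = 3 each). Their log2 fold changes were 0.68 (adjusted p = 0.000496) and 1.03 (adjusted p = 0.000476), VWF averaged 0.18 ± 0.01 FPKM in U251TR and 0.33 ± 0.13 FPKM in U251MG, and the part of these markers in the COL4A1, COL4A2 and COL18A1 results was not tested.

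COL7A1, whose product forms the anchoring fibrils under the epidermis, stood at 2.09, 2.48 and 1.95 FPKM in U251TR and 10.0, 8.07 and 10.4 FPKM in U251MG. It fell in U251TR by 1.72 on a log2 scale (adjusted p = 3.54e-07, SE 0.12). In the other pair it stood at 78.1, 67.3 and 81.2 FPKM in U87TR and 57.9, 55.5 and 70.8 FPKM in U87MG, which overlapped (adjusted p = 0.0988). COL8A1, a short-chain collagen of vessel walls and cornea, stood at 46.9, 37.2 and 33.9 FPKM in U87TR and 27.9, 30.9 and 25.3 FPKM in U87MG. In U251 it stood at 2.21, 1.86 and 1.86 FPKM in U251TR and 0.34, 1.15 and 0.66 FPKM in U251MG. It rose in U251TR by 0.82 (adjusted p = 0.00138, SE 0.17), whereas in U87TR, where the subline libraries were also all higher, adjusted p was 0.0572. Between the parents, U87MG was higher in COL8A1 by 4.10 (adjusted p = 4.72e-10, SE 0.17) and in COL7A1 by 2.57 (adjusted p = 2.33e-09, SE 0.12).

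Of 7 tested genes of FACIT collagens, which sit on the surface of fibrils, 1 rose and 1 fell in U87TR and 2 rose in U251TR. That is 28.57% in each subline, where 27.8% of all genes passed in U87TR and 53.2% in U251TR. COL12A1, which binds type I fibrils, stood at 8.43, 7.05 and 7.37 FPKM in U87TR and 23.9, 21.9 and 19.4 FPKM in U87MG. It fell in U87TR by 1.40 on a log2 scale (adjusted p = 2.85e-06, SE 0.11) with no overlap, while U251TR had 24.4, 26.7 and 22.3 FPKM and U251MG 21.4, 17.5 and 21.9 FPKM (adjusted p = 0.0737). COL16A1, a fibril-associated collagen, stood at 5.01, 5.21 and 6.25 FPKM in U251TR and 0.86, 1.24 and 0.68 FPKM in U251MG. It rose there by 1.76 (adjusted p = 1.84e-07, SE 0.12). In the U87 pair it stood at 47.2, 43.3 and 47.0 FPKM in U87TR and 53.7, 54.3 and 47.2 FPKM in U87MG, and U87MG was higher than U251MG by 4.78 (adjusted p = 5.12e-12, SE 0.12). COL14A1, another collagen of fibril surfaces, had 9.90, 10.8 and 9.80 FPKM in U251TR and 10.9, 8.27 and 10.7 FPKM in U251MG, and at most 0.19 FPKM in any U87 library. It passed only between the parents, with a log2 fold change of -3.35 (adjusted p = 6.75e-11, SE 0.11).

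The remaining FACIT genes were low in all lines. COL22A1, known from tissue junctions such as those of muscle and tendon, stood at 1.37, 1.86 and 2.78 FPKM in U251TR and 0, 0 and 0.01 FPKM in U251MG, a log2 fold change of 1.56 (adjusted p = 1.29e-05, SE 0.17). It was listed at 0 in all 3 U87TR libraries and had 0.09, 0.67 and 0.32 FPKM in U87MG. COL22A1 thus entered the test only through U251TR, the line where it was high. COL9A2, a chain of cartilage type IX collagen, stood at 2.23, 1.79 and 1.38 FPKM in U87TR and 0.40, 0.82 and 0.77 FPKM in U87MG, and rose by 0.75 (adjusted p = 0.00788, SE 0.18). In U251 it stood at 1.85, 2.37 and 1.38 FPKM in U251TR and 2.56, 3.56 and 2.28 FPKM in U251MG (adjusted p = 0.0715). COL9A3 and COL21A1 passed in neither subline and reached at most 6.68 and 1.44 FPKM in a library.

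The transmembrane collagens were among the largest movers in U251TR, in opposite directions. COL13A1, a collagen of cell junctions, stood at 14.8, 11.4 and 17.3 FPKM in U251TR and 3.52, 2.05 and 2.98 FPKM in U251MG, a log2 fold change of 2.01 (adjusted p = 2.17e-06, SE 0.18). U87TR had 13.8, 14.8 and 14.5 FPKM and U87MG 16.7, 19.5 and 25.0 FPKM (adjusted p = 0.0787). COL17A1, the hemidesmosome collagen of epithelia, stood at 3.84, 4.43 and 3.83 FPKM in U251TR and 31.1, 10.5 and 27.8 FPKM in U251MG. U251MG replicate 2 was the lowest library of its line and still above all U251TR libraries. COL17A1 fell by 2.13 (adjusted p = 8.85e-05, SE 0.30). In the U87 pair it was higher in every U87TR library, at 1.75, 2.56 and 1.76 FPKM in U87TR and 0.49, 0.75 and 0.79 FPKM in U87MG, with an adjusted p of 0.055. The changes in the sublines differed by 2.97 for COL17A1 (adjusted p = 0.000139, SE 0.42) and by -2.47 for COL13A1 (adjusted p = 1.12e-05, SE 0.25). Of the epithelial markers, KRT18 averaged 37.9 ± 1.46 FPKM in U251TR and 63.8 ± 8.68 FPKM in U251MG, KRT5 averaged 0.17 ± 0.12 FPKM in U251TR and 2.09 ± 0.93 FPKM in U251MG (SD, n = 3 each), EPCAM was listed at 0 and CDH1 did not exceed 0.08 FPKM in these lines. KRT5 entered the test only through U251MG.

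The multiplexins were each expressed mainly in 1 pair of lines. COL18A1, a basement membrane proteoglycan whose cleaved end is endostatin, stood at 114, 113 and 128 FPKM in U251TR and 67.3, 57.3 and 60.2 FPKM in U251MG. No U87 library exceeded 0.21 FPKM. It rose in U251TR by 0.93 on a log2 scale (adjusted p = 7.68e-06, SE 0.10), and U87MG against U251MG had a log2 difference of -5.76 (adjusted p = 2.32e-13, SE 0.10). COL15A1, its relative, stood at 1.23, 1.29 and 1.36 FPKM in U87TR and 2.25, 1.87 and 3.93 FPKM in U87MG. It fell in U87TR by 0.64 (adjusted p = 0.0104, SE 0.16), and by 0.41 without U87MG replicate 3, its highest library. COL15A1 reached 0.14 FPKM in U251TR, and no U251MG library listed it above 0.

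The other 16 collagens under the filter, beside COL5A3 at up to 1.46 FPKM in a library, stayed low throughout. COL11A1, a fibrillar chain of cartilage, had 1.24, 0.96 and 0.78 FPKM in U87TR and 0.14, 0.14 and 0.24 FPKM in U87MG, and every U87TR library was higher. COL10A1, the short-chain collagen of growth plate cartilage, averaged 0.07 ± 0.06 FPKM in U87TR and 0.75 ± 0.41 FPKM in U87MG (SD, n = 3 each). The highest line mean of the rest was 0.62 FPKM, of COL11A2 in U251MG, and the rest held also COL2A1, COL3A1, COL6A5, COL6A6, COL8A2, COL9A1, COL19A1, COL20A1, COL23A1, COL24A1, COL25A1, COL26A1 and COL28A1.

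The summed level of all 44 genes was 1292 to 1567 FPKM in U87TR, 1137 to 1834 FPKM in U87MG, 1240 to 1431 FPKM in U251TR and 880.5 to 934.4 FPKM in U251MG. Each U251TR library was thus above each U251MG library, while U87TR lay inside the U87MG range. COL6A1 alone gave 57.9% of this sum in U251TR and 54.8% in U251MG. COL6A3 led in the U87 pair, with 30.0% in U87TR and 26.65% in U87MG. COL1A2 was second in U87TR with 16.95%, and COL1A1 gave 1.31% there, against 8.73% in U87MG. COL18A1 gave 8.79% in U251TR.

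Ratios of partner chains within a library do not depend on a library's scaling factor. COL1A1 over COL1A2 was 0.0780 ± 0.0087 in U87TR and 1.08 ± 0.105 in U87MG (SD, n = 3 each), and the libraries did not overlap. COL5A1 over COL5A2 was 1.95 ± 0.076 in U251TR and 1.11 ± 0.070 in U251MG, again without overlap. In the U87 pair it was 2.42 ± 0.30 in U87TR and 3.35 ± 0.77 in U87MG, which overlapped. The ratio of COL4A1 to COL4A2 differed by less than its spread, at 0.367 ± 0.018 in U251TR and 0.379 ± 0.037 in U251MG. COL6A1 over COL6A2 was 5.07 ± 0.13 in U251TR and 7.93 ± 1.91 in U251MG, where replicate 2 had 10.1 and the other libraries 6.46 and 7.23. It was 0.846 ± 0.030 in U87TR and 0.807 ± 0.014 in U87MG, which overlapped. COL6A3 over COL6A2 was 1.97 ± 0.30 in U87TR and 1.36 ± 0.22 in U87MG, without overlap. COL4A5 over COL4A6 was 2.24 ± 0.53 in U87TR and 2.61 ± 0.26 in U87MG, and 10.98 ± 2.32 in U251TR and 9.12 ± 2.94 in U251MG, and both pairs overlapped. No test was run on these ratios.

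**Figure D4:**
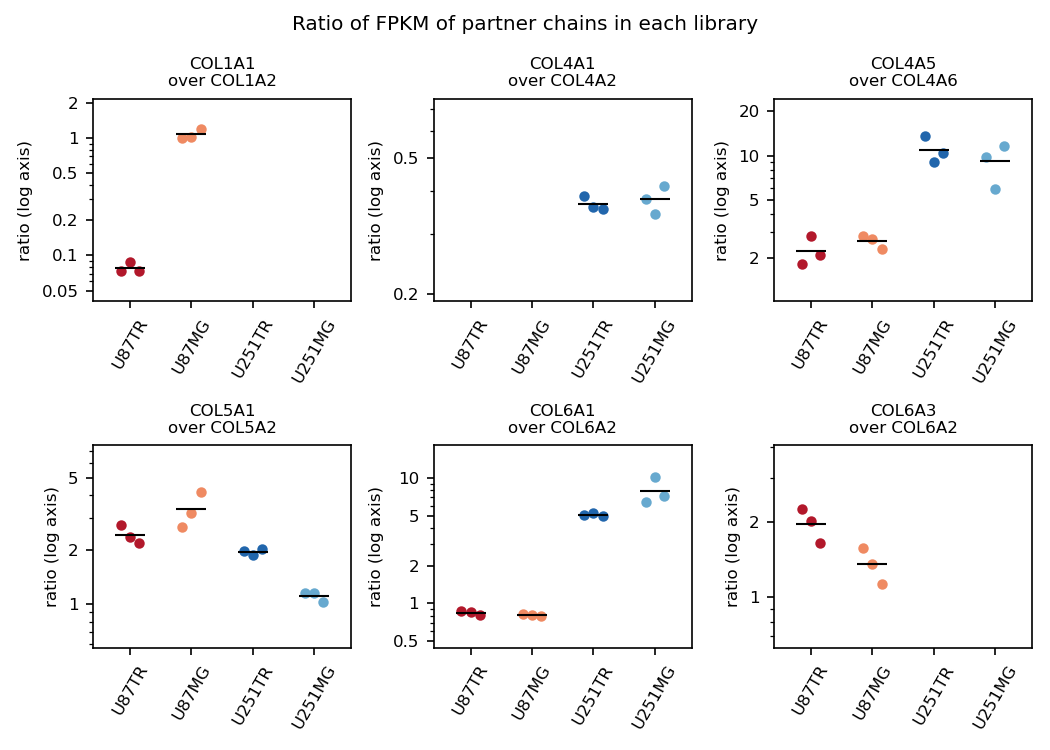
Ratio of FPKM of partner collagen chains in each library (points) with the mean of each line (dash) on log axes, shown only where both chains had at least 1 FPKM in every library of the line. COL1A1 over COL1A2 is 0.0780 in U87TR against 1.08 in U87MG, and COL4A1 over COL4A2 is nearly level between U251TR and U251MG.

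Genes that modify, cut and cross-link collagen chains were followed as the other part of the pathway. Of 33 tested assembly genes, 16 rose and 5 fell in U251TR, where 53.2% of all genes passed, with a median log2 fold change of 0.37, against 0.10 over all genes. In U87TR, 8 rose and 3 fell, where 27.8% of all genes passed, with a median of 0.11, against -0.05 over all genes. Prolyl and lysyl hydroxylation and glycosylation, which stabilise the helix and prepare cross-links, held most of the genes that passed: of 14 tested, 12 rose and 1 fell in U251TR, and 5 rose and 2 fell in U87TR. P4HA2, a catalytic subunit of prolyl 4-hydroxylase, stood at 262, 215 and 216 FPKM in U87TR and 101, 112 and 190.3 FPKM in U87MG, and at 36.0, 33.2 and 36.7 FPKM in U251TR and 11.1, 7.54 and 10.2 FPKM in U251MG. It rose by 0.83 in U87TR (adjusted p = 0.0102, SE 0.20) and by 1.79 in U251TR (adjusted p = 1.63e-05, SE 0.20). PLOD2, the lysyl hydroxylase of collagen end regions, averaged 299 ± 41.5 FPKM in U87TR and 142 ± 79.2 FPKM in U87MG, and 30.7 ± 2.62 FPKM in U251TR and 10.3 ± 1.54 FPKM in U251MG (SD, n = 3 each), and rose by 1.2 in U87TR and 1.5 in U251TR. PLOD1, another lysyl hydroxylase, rose in both, by 0.69 in U87TR and 1.05 in U251TR. P4HA1, the other main catalytic subunit, rose by 0.99 in U87TR, and P4HB, the shared subunit, fell there by 0.69. PLOD3, a lysyl hydroxylase that also adds sugars, and LEPREL2, an older name of the prolyl 3-hydroxylase gene P3H3, rose in U251TR by 0.97 and 1.17.

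Genes for folding and export of procollagen mostly did not pass, where 27.8% of all genes passed in U87TR and 53.2% in U251TR. Of 8 tested, MIA3, which loads procollagen into transport carriers, rose in U251TR by 0.57 (adjusted p = 0.000478, SE 0.10), and 0 passed in U87TR in limma, where 1 had an unadjusted p under 0.05. SERPINH1, the collagen chaperone, averaged 140.1 ± 13.9 FPKM in U87TR and 97.2 ± 10.8 FPKM in U87MG (SD, n = 3 each). In U251 it averaged 58.2 ± 3.24 FPKM in U251TR and 55.0 ± 20.2 FPKM in U251MG, and it passed in neither subline. Of 6 tested genes for cutting off the procollagen ends, 2 rose and 1 fell in U87TR, and 1 rose and 2 fell in U251TR. The same shares of all genes apply. ADAMTS2, at 1.63, 1.49 and 1.68 FPKM in U87MG, reached 1 FPKM in no other line and entered the test only through U87MG. BMP1, which cuts the C-terminal end, stood at 40.8, 32.4 and 32.8 FPKM in U87TR and 18.5, 17.4 and 24.9 FPKM in U87MG, and at 21.4, 21.8 and 20.8 FPKM in U251TR and 50.3, 48.0 and 45.4 FPKM in U251MG. It rose by 0.78 in U87TR (adjusted p = 0.000735, SE 0.13) and fell by 1.13 in U251TR (adjusted p = 1.41e-05, SE 0.13). PCOLCE2, an enhancer of that cut, rose by 1.27 in U87TR, and ADAMTS14, which cuts the N-terminal end, fell by 1.91 in U251TR.

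Of the 5 lysyl oxidases, which start the cross-links between helices, 2 rose and 2 fell in U251TR and 1 rose in U87TR. Of all genes, 53.2% passed in U251TR and 27.8% in U87TR. LOX stood at 18.5, 18.3 and 17.0 FPKM in U251TR and 1.21, 1.60 and 1.25 FPKM in U251MG, a log2 fold change of 3.01 (adjusted p = 1.55e-05, SE 0.34). In U87 it stood at 43.0, 34.1 and 29.6 FPKM in U87TR and 37.8, 44.8 and 126 FPKM in U87MG, where replicate 3 was far above the others. LOXL1 rose in both, by 1.00 in U87TR (adjusted p = 0.000689) and 2.53 in U251TR (adjusted p = 1.09e-07). LOXL4 fell in U251TR by 0.65 (adjusted p = 0.00178), which was lost at a pseudocount of 0.1 (adjusted p = 0.131). LOXL2 had 13.4, 11.5 and 12.3 FPKM in U251TR and 19.3, 27.7 and 19.4 FPKM in U251MG, a log2 fold change of -0.77 (adjusted p = 0.0338) that was lost in 9 settings, with adjusted p of 0.0506 to 0.123, among them without any 1 U251TR replicate, U251MG replicate 2 or U251MG replicate 3.

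**Figure D5:**
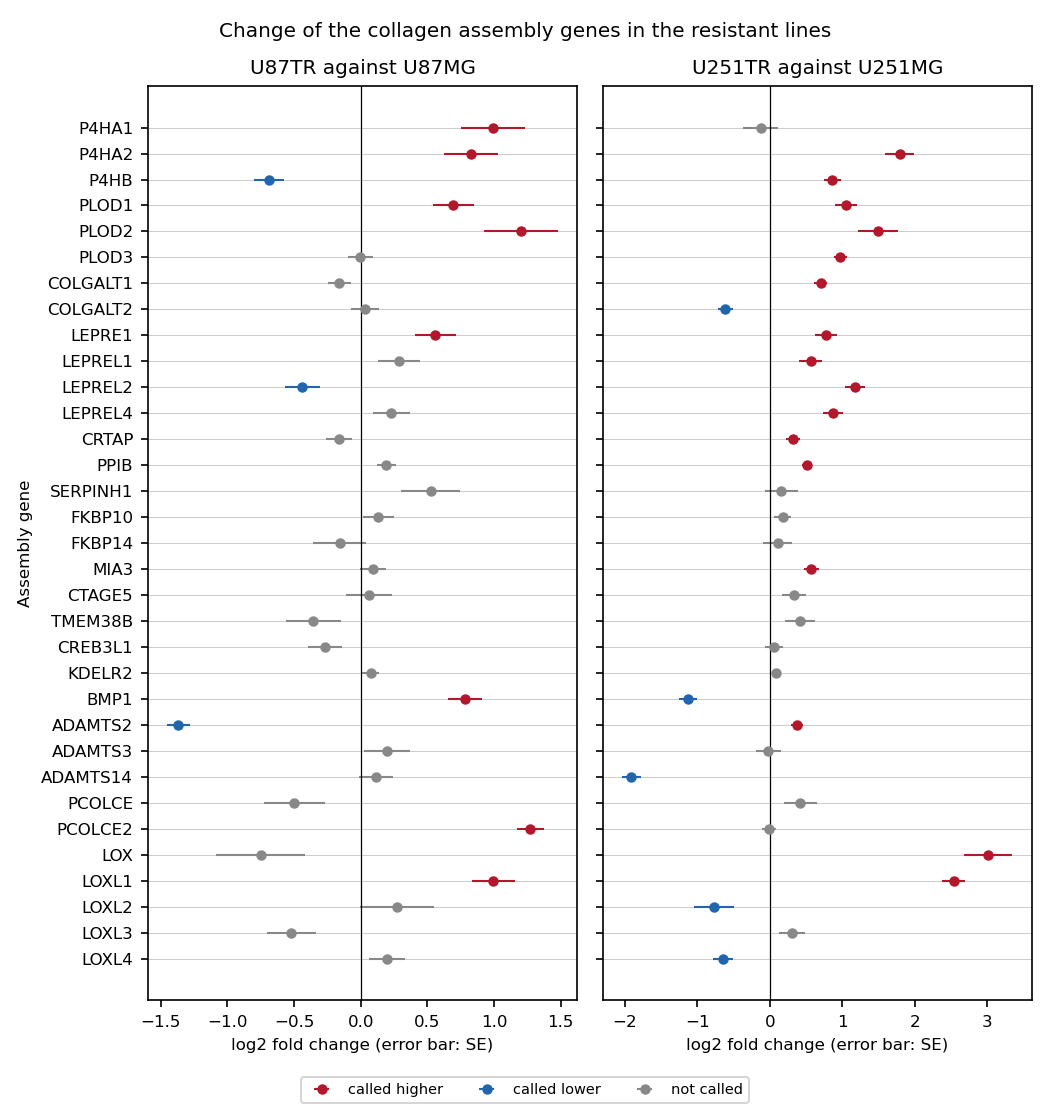
Log2 fold change of 33 collagen assembly genes in U87TR against U87MG (left) and U251TR against U251MG (right), with bars of 1 standard error; colours mark genes that passed the test. Most hydroxylation genes lie right of 0 in U251TR, and LOX lies furthest right there at 3.01.

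Of 8 tested collagen receptors, 3 rose and 2 fell in each subline, where 27.8% of all genes passed in U87TR and 53.2% in U251TR. ITGA2, the collagen-binding integrin chain with ITGB1 as its partner, stood at 54.5, 40.6 and 45.0 FPKM in U251TR and 5.95, 6.80 and 5.83 FPKM in U251MG, a log2 fold change of 2.72 (adjusted p = 1.69e-08, SE 0.14). In U87TR it was lower by 0.48 (adjusted p = 0.0222), a call lost in 6 settings, among them without U87TR replicate 3, U87MG replicate 1 or U87MG replicate 2 (adjusted p = 0.0759 to 0.0936). ITGA1, a related chain, and MRC2, an endocytic collagen receptor, rose in U251TR by 1.86 and 1.63. DDR1, a receptor tyrosine kinase bound by collagen, rose in U87TR by 0.81 and fell in U251TR by 0.59. ITGA11, an integrin chain for type I collagen, rose in U87TR by 0.83. ITGB1 fell in both, by 0.33 in U87TR, lost without U87TR replicate 3 (adjusted p = 0.0519), and by 0.33 in U251TR, lost when values were rescaled to TPM (adjusted p = 0.0644).

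Of 5 tested collagen-binding matrix proteins, 2 rose and 1 fell in each subline, beside the same shares of all genes, 27.8% in U87TR and 53.2% in U251TR. DCN entered the test only through U87MG and BGN only through U251MG. SPARC, which binds fibrillar and type IV collagen, stood at 812, 630.3 and 626 FPKM in U87TR and 369, 359 and 392 FPKM in U87MG, and at 924, 729 and 907 FPKM in U251TR and 548, 637 and 551 FPKM in U251MG. It rose by 0.87 in U87TR (adjusted p = 0.00019) and 0.55 in U251TR (adjusted p = 0.00185), and all subline libraries were higher. TGFBI rose in U251TR by 0.87 and LUM, a proteoglycan of fibrils, in U87TR by 1.05. Of 4 tested collagenase genes, 3 fell in U87TR, where 17.2% of all genes fell, and 2 fell in U251TR, where 19.6% fell. MMP14, a membrane-bound enzyme that cuts fibrils, stood at 0.69, 0.25 and 0.50 FPKM in U251TR and 9.56, 10.5 and 10.1 FPKM in U251MG, and fell by 2.91 (adjusted p = 1.31e-09, SE 0.11). MMP2, a gelatinase, fell in U251TR by 1.40. In U87TR, MMP1, the interstitial collagenase, fell by 2.27, and CTSK, a lysosomal collagenase, by 2.18. MMP1 stood at 0.68, 1.25 and 1.04 FPKM in U87TR and 9.82, 9.52 and 6.64 FPKM in U87MG. It did not exceed 0.15 FPKM in any U251 library and so met the filter only through U87MG, where it was high. MMP14 fell in U87TR by 0.44 (adjusted p = 0.00997), which was lost at a pseudocount of 0.1 (adjusted p = 0.158).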

How the data were processed

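The data were 12 RNA sequencing libraries, 3 from each of U87TR, U87MG, U251TR and U251MG. Per the labels, they were made with a TruSeq kit and sequenced from both ends at 150 bp. STAR 2.5.2b, RSEM 1.2.31 and hg19 are named in the submitters' processing notes, but the design text has hg38, so no coordinate was taken for the expression values. The deposited table holds FPKM by gene symbol, to 2 decimals. The unit is stated nowhere and was read from the values: each library sums to between 696371 and 786642, and the sum weighted by transcript length came to 0.76 to 0.81 of what FPKM of matched genes would give at most. Without counts the depth is unknown, and no counting interval or floor is given. Symbols turned into dates (27) were left out. Strand use in counting is not given in the sources used here, so reads of a collagen gene and of an antisense gene that overlaps it cannot be told apart.

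Tests covered the 15449 of 31654 genes that reached 1 FPKM in 3 or more libraries. A group-means model on log2(FPKM + 1) of all 12 libraries was fitted in limma 3.58.1 (R 4.3.3) with trend and robust moderation. Tests were two-sided, and p-values were adjusted by Benjamini-Hochberg over all tested genes in a comparison. Fold changes are on the log2(FPKM + 1) scale, which understates changes of low genes. Simulated data with known changes served to check the fit. Named collagens had a line mean of at least 10 FPKM, or passed in a subline at a line mean of at least 2 FPKM. Up to 5 genes of each other list were named by the size of their change at a line mean of at least 5 FPKM, and further genes were picked with their values known. The collagen genes and the other lists were chosen with earlier results of these data known. Assembly, receptor, matrix and collagenase lists held 36, 10, 7 and 6 genes in the table. Alternatives were no filter or one at 5 FPKM, pseudocounts of 0.1 and 5, 3 other scalings (TPM, median-of-ratios, quantile), a replicate block, a fit on 6 libraries alone, leaving out each library, and a 2-fold minimum. Replicate numbers did not pair the samples: deviations of same-numbered libraries correlated between -0.058 and 0.116. Promoter sequences came from RefSeq (GRCh38.p14), where 32 of 44 collagens were matched.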

Additional observations from a re-analysis of the deposited data

Results flagged for a closer look

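For 19 collagen genes, the change in U87TR against U87MG and the change in U251TR against U251MG differed by the limma test of the difference itself, on the log2(FPKM + 1) scale over all tested genes, where 47.6% of all genes passed. Each value below is the change in U87TR minus the change in U251TR. In fibril-forming genes it was -3.24 for COL1A1, 1.18 for COL1A2, 2.02 for COL5A1 and 3.159 for COL5A2. In type VI genes it was -0.95 for COL6A1 and -1.62 for COL6A2. In type IV genes it was -0.68 for COL4A1, -1.08 for COL4A2, -1.02 for COL4A3 and -1.5 for COL4A4. COL4A1 did not exceed 0.12 FPKM and COL4A2 did not exceed 5.70 FPKM in any U87 library. Their differences lost the call in 12 and 10 other settings, and the value of COL4A1 was -0.43 without U251MG replicate 2. In FACIT genes it was -1.66 for COL12A1, -1.93 for COL16A1, -1.98 for COL22A1 and 1.16 for COL9A2. In transmembrane genes it was -2.47 for COL13A1 and 2.97 for COL17A1, and in multiplexins -0.82 for COL15A1 and -0.98 for COL18A1. COL7A1, of anchoring fibrils, had 2.02. Every U251MG library listed COL15A1 at 0 and every U87TR library listed COL22A1 at 0, so their values depend on the added 1 FPKM. COL18A1 did not exceed 0.21 FPKM in any U87 library, nor COL1A2 0.27 FPKM in any U251 library. The values of COL18A1, COL1A2 and COL4A1 thus rest mainly on the change in the other pair of lines. COL4A3, COL4A4 and COL22A1 entered the test only through U251TR, where they were high.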

How the results depend on the processing

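Of 1134 alternative values for 66 collagen results that passed the test, 1053 stayed past it in the same direction and none turned round. A 2-fold minimum left 10 of 17 collagens in U251TR and 4 of 10 in U87TR, and 8 of 21 assembly genes in U251TR and 3 of 11 in U87TR. Of the 81 values that lost the call, 20 did so under that minimum. The others belonged to COL4A1, COL4A2 and COL4A6 in U251TR, COL4A5 and COL5A1 in U87TR, COL4A1 and COL4A2 in the difference between sublines, and COL22A1 and COL4A6 between the parents. COL4A6 in U251TR lost it on 6 libraries alone (adjusted p = 0.0648). Between the parents, COL4A6 was 0.85 higher in U87MG without U251MG replicate 2, against 0.54 with it, and COL22A1 was 0.26 without U87MG replicate 2 (adjusted p = 0.201), against 0.42. The cause was not tested. The replicate block changed no call of these 66 collagen results, with 18 collagens called in U251TR and 10 in U87TR, and among the other genes LOXL2 in U251TR lost its call (adjusted p = 0.0527). Quantile normalization moved the ratio of COL1A1 to COL1A2 in U87TR to 0.0881, of COL4A1 to COL4A2 in U251TR to 0.344, and of COL6A1 to COL6A2 in U251TR to 5.5. Leaving out 1 library at a time gave 16 to 18 collagens in U251TR and 8 to 11 in U87TR. Depth could not be weighed without counts.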
